A study of Drosophila melanogaster with 2 samples.

Results

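The genes described here are 10 regulators of the cell cycle, taken as a list of names (the values of these data were known from earlier work when the list was drawn up), out of 13945 protein-coding genes on chromosomes X, 2, 3 and 4. The 5 regulators of entry into S phase (G1/S) are CycD, CycE, Cdk2, E2f1 and dap, and the 5 grouped as G2/M regulators are CycA, CycB, Cdk1, stg and rux. The labels define no phases: rux is in the G2/M group because its target is CycA with Cdk1, but it is known to act in G1, so the main phase values are also given with rux moved to the G1/S group. The data are chromatin immunoprecipitation (ChIP-seq) peak lists for CG3065, a transcription factor with the zinc fingers of the Sp/KLF family, in whole Drosophila melanogaster embryos of both sexes aged 0 to 16 h. All embryos came from a transgenic line that makes CG3065 with GFP at its C-terminal end, and the protein was pulled down through GFP. The labels give a single group and call its samples biological replicates 1 and 3, so no condition was compared, no test over samples could be made, and whole embryos do not show in which cells a site was occupied.

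Cyclins switch on the cyclin-dependent kinases (Cdks), and each pair drives one step of the cycle. CycD with its Cdk and CycE with Cdk2 act in G1 and at the start of S phase, E2f1 is the activating E2F transcription factor that turns on S-phase genes, and dap is the p21/p27-type inhibitor of CycE with Cdk2. CycA and CycB work with Cdk1 at mitosis, stg is the Cdc25 phosphatase that activates Cdk1, and rux inhibits CycA with Cdk1 in G1. In the fly embryo the first divisions run on maternal products, after which transcription of stg times mitosis, and cells leave the cycle as CycE declines and dap comes on.

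Peaks were counted by their summit, within the gene body and 5 kb either side. The signal is the peak's own value from the authors' caller, on a scale that differs between lists, so replicates are set side by side by rank (1 is the strongest) or by percentile where list length matters. A relaxed list holds every peak fed to the authors' reproducibility analysis, background included, so a relaxed entry need not mark binding. There were 30000 relaxed peaks in the pooled list, 30000 in replicate 1 and 26271 in replicate 3. The 2451 peaks that passed the irreproducible discovery rate are called IDR peaks, and they are exactly the strongest entries of the pooled list, down to a signal of 81.3. Depth is unknown, since peak lists carry no counts of reads. Intervals are Clopper-Pearson at 95% and cover counting error only. They treat genes as independent draws, though all genes were counted and neighbouring windows can share a summit, so they are nominal.

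Sequences under the summits show how different the sites at these genes are. Each line gives the plus strand of dm6 (Release 6, RefSeq), 50 bases either side of a summit, and capitals mark a match to the Sp/KLF box, the GC-rich word of the family that CG3065 belongs to. The first pair are the IDR summits of CycE, the next pair those at E2f1, and the last are the strongest promoter summits of Cdk1 and CycD, which are relaxed entries.
CycE, stronger summit, chr2L:15747027-15747127: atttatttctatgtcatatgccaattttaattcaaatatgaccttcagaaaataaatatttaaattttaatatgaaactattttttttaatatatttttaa
CycE, weaker summit, chr2L:15747229-15747329: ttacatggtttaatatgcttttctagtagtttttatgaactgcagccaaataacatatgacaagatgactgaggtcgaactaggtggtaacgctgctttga
E2f1, summit in its intron, chr3R:21641664-21641764: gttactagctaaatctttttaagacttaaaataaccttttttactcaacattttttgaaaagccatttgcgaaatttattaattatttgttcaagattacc
E2f1, summit downstream, inside InR, chr3R:21616061-21616161: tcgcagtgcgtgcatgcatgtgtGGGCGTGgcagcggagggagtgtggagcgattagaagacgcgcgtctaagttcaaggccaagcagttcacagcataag
Cdk1, promoter summit, chr2L:10386395-10386495: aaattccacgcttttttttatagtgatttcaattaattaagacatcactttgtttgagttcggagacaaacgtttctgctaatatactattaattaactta
CycD, promoter summit, chrX:15910098-15910198: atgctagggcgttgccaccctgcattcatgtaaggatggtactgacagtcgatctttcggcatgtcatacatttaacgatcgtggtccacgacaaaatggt

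The strongest CycE window is 13.9% G and C, and the intronic E2f1 window 23.8%, whereas the window in InR is 57.4% G and C and is the one of the 8 IDR summits in these windows that holds the box, beside 276 of all 2451 IDR summits (11.3%). The median over the 8 was 30.2% G and C, beside 34.7% over all 2451 IDR summits.

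An IDR summit lay in the window of 5 of the 10 genes, CycE, E2f1, CycB, Cdk1 and stg. Over all 13945 protein-coding genes the share was 33.2% (95% interval 32.4% to 33.9%). Longer windows hold more summits: among genes with windows of 20 kb or more, as for CycE and E2f1, the share was 47.5%, and 2 of these 2 had one, while among the shorter windows it was 30.8%, and 3 of the other 8 had one. At least 2 IDR summits lay in the windows of 3 of the 10 genes (CycE, E2f1 and CycB), against 9.78% of all genes, a share not split by window length. The 2 CycE peaks overlap, and 1 summit at E2f1 and 1 at CycB were nearest to the starts of InR and blw. Of the 8 IDR summits, 5 had the gene's own start site as the nearest, at 4 genes (CycE, E2f1, CycB and stg), against 13.0% of all genes. The remaining 3 were closest to the start of a neighbour. Within 500 bp of an own start site, 2 of the 10 genes (CycE and stg) had an IDR summit, against 12.0% of all genes. With 10 genes and no test, these counts describe the genes and are not read as a difference from the rest.

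Relaxed summits were found at all 10 genes, as at 88.1% of all genes. They numbered 86, and their spread was uneven, with 29 at E2f1, 10 each at CycE and CycA, 7 each at stg and rux, 6 each at CycD and Cdk1, 5 each at CycB and dap, and 1 at Cdk2. Of the 86, 30 lay in introns of the gene, 25 upstream, 21 downstream, 6 in 5' untranslated regions and 4 in coding exons. The nearest start site was the gene's own for 48 of them.

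**Figure D1:**
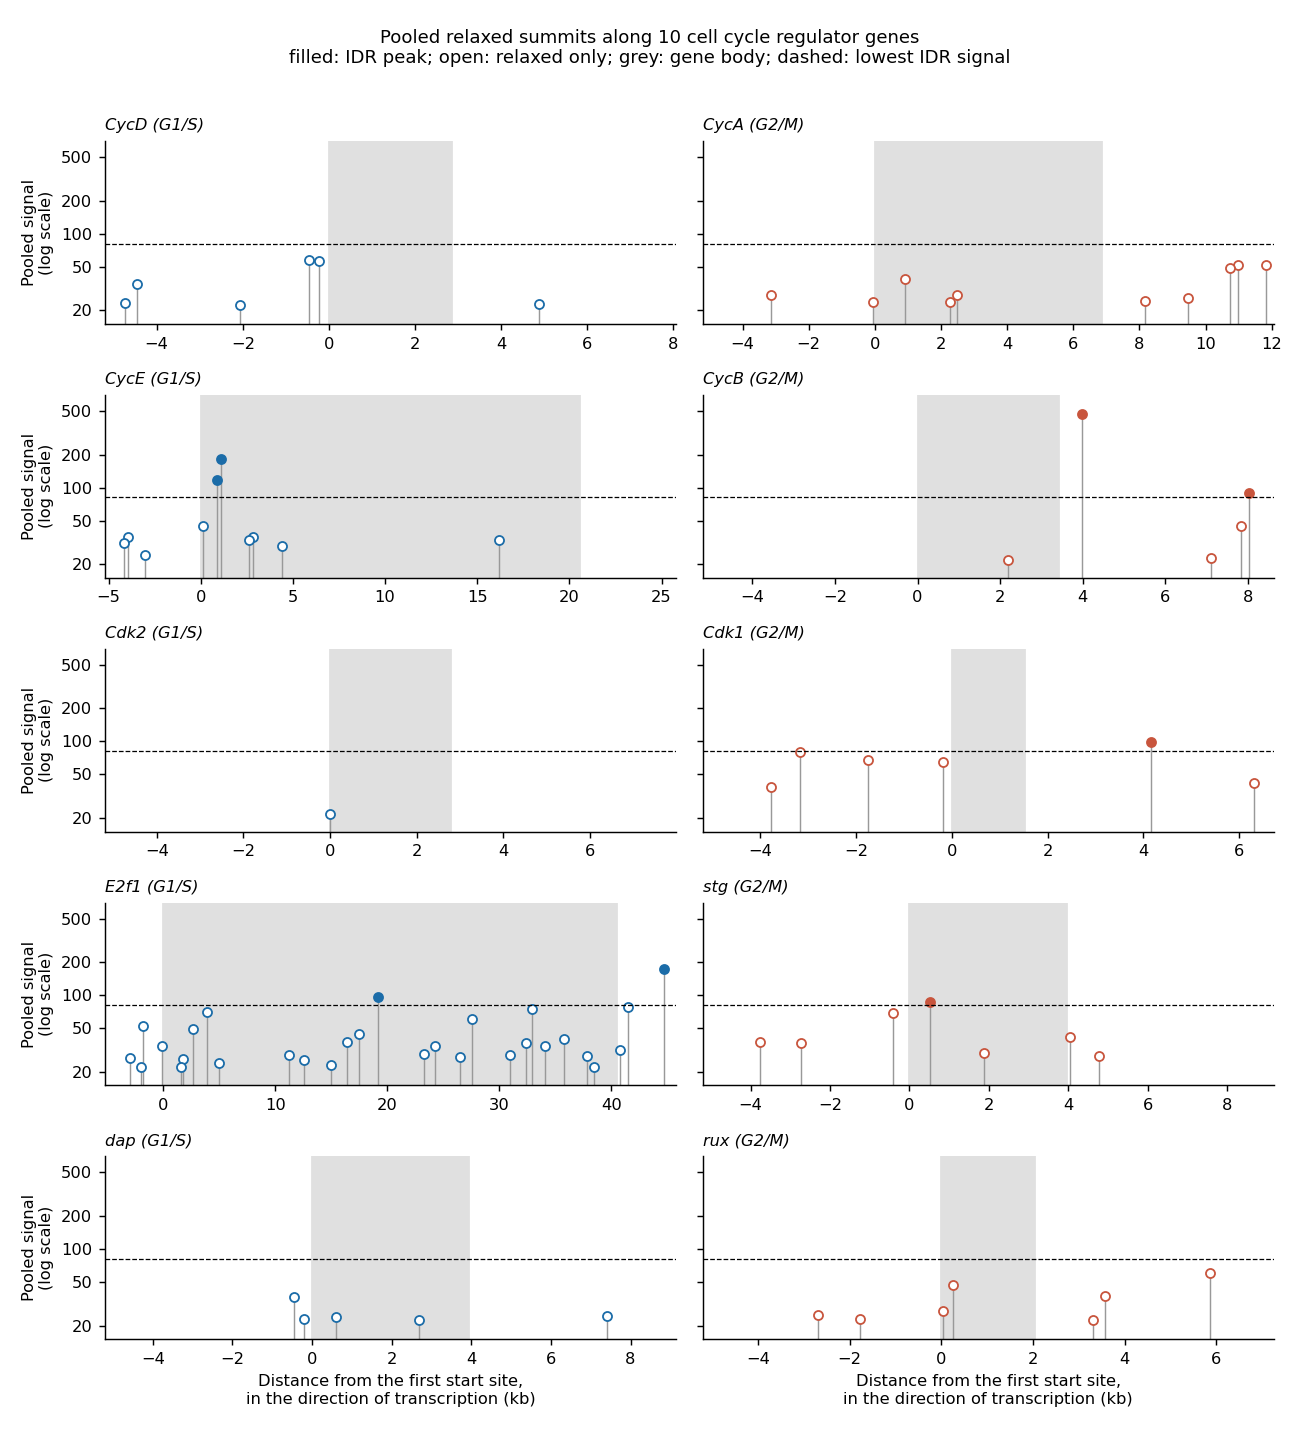
Pooled relaxed summits along each gene, G1/S regulators in the left column and G2/M regulators in the right. The x axis is the distance from the gene's first start site in kb, in the direction of transcription, the y axis the pooled signal on a log scale, and the dashed line the lowest IDR signal (81.3); filled points are IDR peaks, open points relaxed entries, and grey the gene body. The highest point is the summit downstream of CycB (467), the 2 filled CycE points lie within the gene near its start, and Cdk2 has 1 point.

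Gene positions are from the dm6 annotation, with FlyBase identifiers. CycD (FBgn0010315, X, 15906822 to 15909676, minus strand), the G1 cyclin, had no IDR peak but a pair of promoter summits, 231 bp and 472 bp upstream of its start site. Their pooled signals were 56.6 and 57.6, at ranks 4800 and 4631 of the pooled list. The peaks of the pair overlap, so they may be counted as 1 region. The replicates differed in the summits they listed there. The nearer summit was matched in replicate 3 by a summit of rank 1626 (signal 45.6) and had no summit within 200 bp in replicate 1. The farther one was matched in both, at rank 6940 in replicate 1 and rank 9302 in replicate 3. The other 4 entries of CycD had pooled signals from 22.4 to 34.8, and 3 of those lay in Lrp4, the next gene upstream.

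CycE (FBgn0010382, 2L, 15727581 to 15748150, minus strand), which with Cdk2 starts S phase, had the strongest promoter signal of the 10 genes. Its IDR summits lay 467 bp and 669 bp upstream of one of its 3 start sites, in an intron of the transcript that begins farther upstream. Their pooled signals were 182 and 118, at ranks 444 and 1191. In replicate 1 the signals were 105 and 53.6 (ranks 395 and 1856) and in replicate 3 they were 76.4 and 51.5 (ranks 541 and 1289), so both summits were among the 2451 strongest of each replicate. The summits are 202 bp apart and their peaks overlap, so they may be counted as 1 region. The other 2 start sites of CycE had weak entries beside them, with pooled signals of 44.3 (144 bp inside the gene) and 33.4 (196 bp upstream).

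Cdk2 (FBgn0004107, 3R, 20735623 to 20738414, plus strand), the kinase partner of CycE, was at the other end. Its 1 pooled entry, 2 bp from its start site, had a signal of 21.7 and rank 29400 of 30000. Replicate 1 held a higher-ranked entry there (signal 22.4, rank 9790, 70 bp upstream), and replicate 3 held none within 500 bp of the start. CycE and Cdk2, whose products work as a pair, thus had the highest and the lowest of the 9 pooled promoter signals.

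E2f1 (FBgn0011766, 3R, 21620304 to 21660871, minus strand) had the most entries, in the longest window (50.6 kb). Its IDR summits were 1 in an intron, 3220 bp upstream of the nearest of its 5 start sites, at 21641714 with a pooled signal of 95.7, and 1 downstream of the gene at 21616111 with a signal of 173. The intronic one ranked 2530 in replicate 1 and 1270 in replicate 3, and so fell just outside the 2451 strongest of replicate 1. The downstream one ranked 581 in replicate 1 and 403 in replicate 3. It lies within InR, the insulin receptor gene, 2925 bp from an InR start site and 16582 bp from that of E2f1, so its place in the E2f1 window follows from the 5 kb flank. At the promoters of E2f1 the strongest entry had a signal of 60.4 (234 bp upstream of a start site).

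dap (FBgn0010316, 2R, 9712321 to 9716256, plus strand), the inhibitor of CycE with Cdk2, had weak entries throughout. The strongest of the 5, 455 bp upstream of its start, had a pooled signal of 36.4, with signals of 26.3 in replicate 1 and 15.9 in replicate 3. The other 4 ranged from 22.6 to 24.4.

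Among the G2/M genes, CycB (FBgn0000405, 2R, 22803521 to 22806948, minus strand) had the strongest summit of the 10 windows, and it did not lie at the promoter. Its pooled signal was 467, at rank 32 of 30000. By the strongest summit in the window, CycB came 102nd among the 12281 genes with a relaxed summit in theirs. That place is shared with any gene that has this same summit as its strongest, and the windows of blw, CG42260 and stl hold it too. The replicates gave this summit signals of 260 (rank 27) and 207 (rank 40), with summits 21 bp apart. The peak (2R, 22802851 to 22803089, dm6) lies in no annotated protein-coding gene, and its summit is 568 bp beyond the 3' end of CycB and 773 bp beyond the end of blw, which encodes an ATP synthase subunit. CycB and blw converge on this stretch, and the nearest start site, 3350 bp away, is that of CycB. The second IDR summit of the CycB window (88.6, at 22798907) lay 192 bp from the start of blw.

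The pooled list had no entry within 500 bp of any of the 3 start sites of CycB, which made it the one gene of the 10 without one. Both replicates did list a peak there. In replicate 1 the higher-ranked of 2 such summits lay 91 bp upstream of a start site with a signal of 64.4 and rank 1270, and in replicate 3 a summit lay 83 bp upstream with a signal of 24.0 and rank 6425. The nearest entry of the pooled list was 2277 bp from the replicate 1 summit. Such cases were rare: of 12380 relaxed peaks of replicate 1 with a match in replicate 3, 210 (1.70%) had no pooled summit within 200 bp, and the CycB promoter was the second strongest of the 210. Among the 2332 matched peaks within the 2451 strongest of replicate 1 there were 4. Counts based on the pooled and IDR lists therefore leave the CycB promoter out.

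CycA (FBgn0000404, 3L, 11826719 to 11833578, minus strand), the other mitotic cyclin, had no IDR summit. Its strongest entries (52.3, 52.0 and 48.5) were downstream of the gene, nearest to the starts of RpL10Ab and CG11597, and its own promoter had an entry of 23.6 at rank 25345, 42 bp upstream of the start. Replicate 1 had a promoter entry at rank 5214 (signal 31.6), and replicate 3 none within 200 bp.

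Cdk1 (FBgn0004106, 2L, 10384739 to 10386262, minus strand), the mitotic kinase, had entries of middling strength on both sides. Its promoter summit, 183 bp upstream, had a pooled signal of 64.6 and was matched at rank 4640 in replicate 1 and 3649 in replicate 3. The matched summit of replicate 3, 207 bp upstream, was nearer to the start of mRpS7. To which gene this peak belongs thus cannot be told apart. The IDR summit of its window (99.2, at 10382101) lay 162 bp from the start of CG5096, inside gny. An entry of 80.1, 3165 bp upstream and within da, a bHLH transcription factor gene, fell just short of the IDR set at rank 2517.

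stg (FBgn0003525, 3R, 29251826 to 29255800, minus strand), the Cdc25 phosphatase, had an IDR summit in its 5' untranslated region, at 29255282, 43 bp from a start site. Its pooled signal of 87.5, at rank 2131, was the lowest of the 8 IDR summits. It ranked 1565 in replicate 1 (signal 58.1) and 5853 in replicate 3 (signal 24.9), the widest gap between replicates among the 8. A second entry, 406 bp upstream of its first start site and closer to CG45544, had a pooled signal of 68.6. rux (FBgn0003302, X, 6035753 to 6037800, minus strand), the inhibitor of CycA with Cdk1, had no IDR summit. Its strongest entries were 1 of 60.6 downstream of the gene, 5321 bp from its start, and 1 of 47.4 in an intron, 246 bp from a start site. Both ranked higher in replicate 1 (3285 and 4507) than in replicate 3 (9157 and 21307).

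The IDR cut ran close to several of these summits. Just above the cut of 81.3 were the stg summit (87.5) and the blw-side summit of CycB (88.6), and just below it were the entries of the Cdk1 window within da (80.1) and of the E2f1 window at the InR promoter (77.2), followed by an intronic E2f1 entry (75.1).

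**Figure D2:**
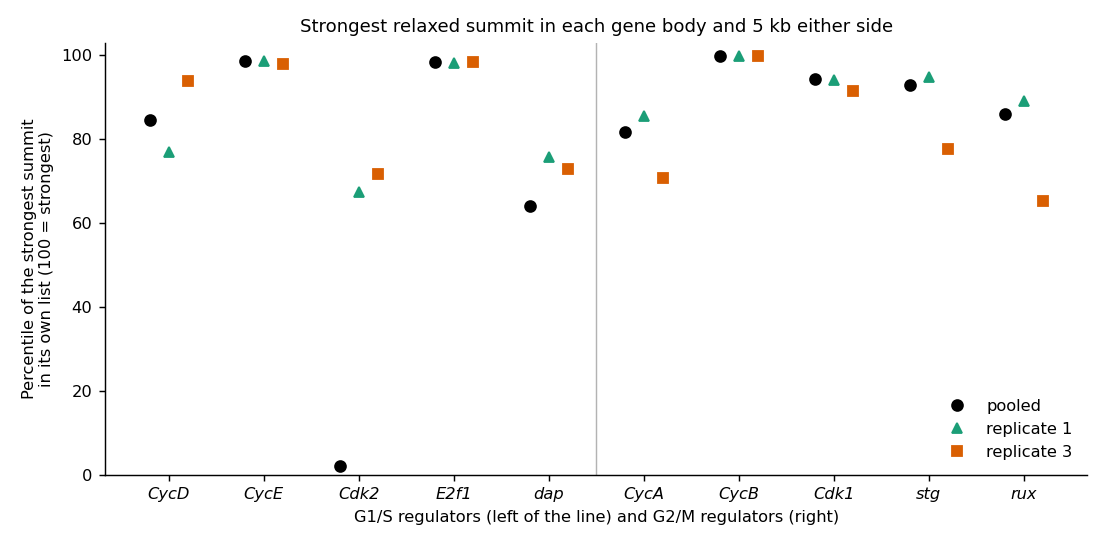
Percentile of the strongest relaxed summit in each gene's window within the pooled list (circles), replicate 1 (triangles) and replicate 3 (squares), with G1/S regulators left of the line and G2/M regulators right; 100 is the strongest peak of a list. CycB, CycE and E2f1 are at 97.9 or above in all 3 lists. CycA, stg and rux are higher in replicate 1 than in replicate 3, Cdk1 and dap slightly so, and CycD is higher in replicate 3. Cdk2 is at 2.00 in the pooled list but at 67.4 in replicate 1 and at 71.6 in replicate 3, where the strongest summit is a different one.

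Set side by side, G1/S and G2/M regulators had the same number of IDR summits, 4 in 2 of 5 G1/S genes and 4 in 3 of 5 G2/M genes. The G1/S windows added up to 121 kb and the G2/M windows to 67.8 kb, so the density was 0.331 per 10 kb in G1/S windows and 0.590 in G2/M windows, beside 0.277 summed over the windows of all genes. All 4 G1/S summits were at CycE and E2f1, so without those genes the G1/S density was 0. Counting summits for the gene with the nearest start site gave 0.249 in G1/S windows and 0.295 in G2/M windows. With overlapping IDR peaks counted once (added after seeing the data), the densities were 0.249 in G1/S windows and 0.590 in G2/M windows. Among the IDR peaks above their median signal the order was turned round, with 0.249 in G1/S windows and 0.147 in G2/M windows. That order rests on very few summits: the 2 of CycE, whose peaks overlap, and 1 at E2f1, against 1 at CycB. With rux counted as a G1/S gene, the IDR densities were 0.301 in G1/S windows and 0.717 in G2/M windows, and the medians of the strongest signal 59.1 in G1/S genes and 93.3 in G2/M genes. For relaxed summits the densities were 4.22 per 10 kb in G1/S windows and 5.16 in G2/M windows, beside 2.63 over all genes. With rux moved they were 4.37 in G1/S windows and 5.02 in G2/M windows. The strongest signal per gene had a median of 57.6 in G1/S genes (21.7 to 182) and 87.5 in G2/M genes (52.3 to 467). These ranges overlap, and with 5 genes in each no difference between the phases was tested.

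By place, of the 51 relaxed summits in G1/S windows 25 were in introns and 5 downstream, and of the 35 in G2/M windows 5 were in introns and 16 downstream. With rux moved, introns held 27 of 58 in G1/S windows and 3 of 28 in G2/M windows, and 8 and 13 lay downstream. The 25 in G1/S introns were all in E2f1 (20) and CycE (5), the genes with the longest windows. The own start site was the nearest for 36 of 51 in G1/S windows and 12 of 35 in G2/M windows, where blw, da and RpL10Ab were among the nearest genes. With rux moved it was the nearest for 41 of 58 in G1/S windows and 7 of 28 in G2/M windows.

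At promoters, the strongest entry per gene was 182 for CycE, 87.5 for stg, 64.6 for Cdk1, 60.4 for E2f1, 57.6 for CycD, 47.4 for rux, 36.4 for dap, 23.6 for CycA and 21.7 for Cdk2. A pooled entry within 500 bp of a start site was thus found for 9 of the 10 genes, against 49.3% of all genes. Among the 71 other cell cycle genes described below, 62 had one (87.3%), so this is not particular to the 10. The median over the 9 was 57.6, beside 50.5 over the 62 and 48.5 over the 6876 genes of the whole set that had one. In order of promoter signal, G1/S and G2/M genes were interleaved, with the entry that is also close to mRpS7 counted for Cdk1.

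Both replicates listed a summit within 200 bp for each of the 8 IDR summits of these windows, as for 99.2% of all IDR summits. Of the 86 relaxed summits, 40 (46.5%) were matched in both replicates, 42 in 1 and 4 in neither, beside 41.05% in both over the whole pooled list. Among those 40, 26 had the higher percentile in replicate 1 and 14 in replicate 3; by plain rank, which the shorter list of replicate 3 favours, the counts were 22 and 18. Spearman's rho of signal between the replicates was 0.711 across the 40, beside 0.612 across all 12315 matched summits. These points share their libraries and genes, so no p-value is attached.

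**Figure D3:**
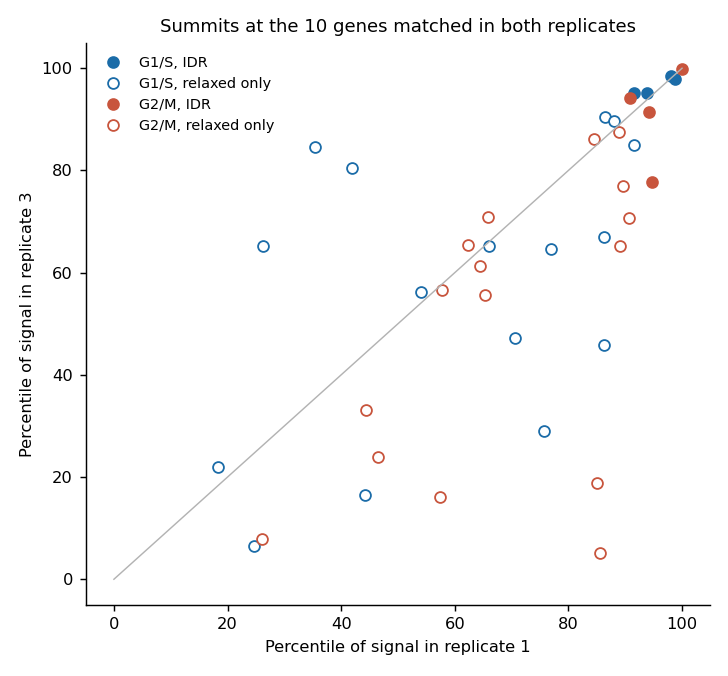
Percentile of signal in replicate 1 (x axis) and in replicate 3 (y axis) for the 40 summits of the 10 genes matched in both, in blue for G1/S and red for G2/M regulators; filled points are IDR peaks, and the line marks equal percentiles. All filled points except that of stg (94.8 and 77.7) lie above 90 on both axes, and open points scatter widely to either side of the line.

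The words searched at summits were the Sp/KLF box (CACNCCC with A or G at N, and the word CCCNCCC with the same choice), an E2F site (the word TTTGGCGC, the word TTTCCCGC, the word TTTGCCGC or the word TTTCGCGC) and the DRE, an element of many growth and replication gene promoters (TATCGATA), on both strands and within 50 bp. The box was found at 6 of the 86 relaxed summits (6.98%), beside 9.36% of all 30000. Besides that in InR, the matches were 1 at Cdk1 (the summit within da), 2 at CycA, 1 at E2f1 (in an intron) and 1 at CycD. Of those at CycA, 1 was in an intron and 1 lay 4957 bp past the gene's end, inside CG5946 and CG11597. The match at CycD lay inside Lrp4. An E2F site was found at 2 of the 86 (2.33%, beside 2.00% of all), 1 in an intron of E2f1 and 1 downstream of stg. A DRE was found at 1 (1.16%, beside 1.09%), at the CycA promoter summit, 38 bp from the summit. No match says only that these letters are not in this window.

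Other genes of the cycle were taken from a list of 71. At the promoter, again within 500 bp, 13 of them had an IDR summit (18.3%, against 12.0% of all genes) and in the window 34 did (47.9%, against 33.2%). By nearest start site the promoter count was 6. The window share was not split by window length, with which it rose over all genes (30.8% under 20 kb, 47.5% from 20 kb). These counts are not read as a difference from the rest. The strongest promoter summit was that of Dp, the partner of E2f1 in DNA binding, with a pooled signal of 303 (rank 123). It lay 216 bp upstream of the start site of Dp, and the replicates gave 154 and 146. The signal at Dp was thus higher than at any promoter of the 10 genes, while E2f1 itself reached 60.4.

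By group, promoter IDR summits were found at 0 of 8 further cyclins and kinases, where CycH (63.3) and CycG (58.1) came closest, and at 2 of 10 genes of the E2F, Rb and dREAM complexes. Besides Dp these held Rbf2, an Rb-family repressor (101, shared with CG32856). Next were mip40 (62.4, shared with Tab2) and mip130 (47.0, shared with Edem1). Among 10 regulators of Cdk activity there were 4: mts, the PP2A catalytic subunit (143, shared with Rack1), gwl, the Greatwall kinase (109, shared with PGS1), and the mitotic kinases aurB (85.6, shared with Stam) and aurA (81.7, shared with CG3281), both near the cut. Next were trbl, which promotes turnover of stg protein (57.8), and tws (56.4).

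Among 14 genes of the APC/C and SCF ubiquitin ligases there were 2, Cdc16 (116, shared with orb) and slmb (93.9, shared with CG5793). ago, the F-box protein that targets CycE, had 75.5 (shared with CG1265), under the cut, and ida 57.5. Among 18 genes of licensing and replication there were 2, RnrS, the small subunit of ribonucleotide reductase (198, shared with CG34231), and dpa, a subunit of the MCM helicase (123, shared with didum). The MCM genes Mcm5 (80.2, shared with Art1) and Mcm2 (78.6, shared with RPA1) lay just below the cut. Among 11 checkpoint and anaphase genes there were 3: mei-41, the fly ATR (155, shared with TH1), tefu, the fly ATM (125, shared with Hsc70-4), and the spindle checkpoint gene BubR1 (98.1). They were followed by Bub3 (66.5, shared with Cap-D2) and grp (62.97). In 11 of the 13, another gene had a start site within 500 bp of the same summit, so to which of the genes the summit belongs cannot be told apart. For 6 of the 13 (Dp, aurB, Cdc16, dpa, RnrS and BubR1) the gene's own start was the nearest.

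**Figure D4:**
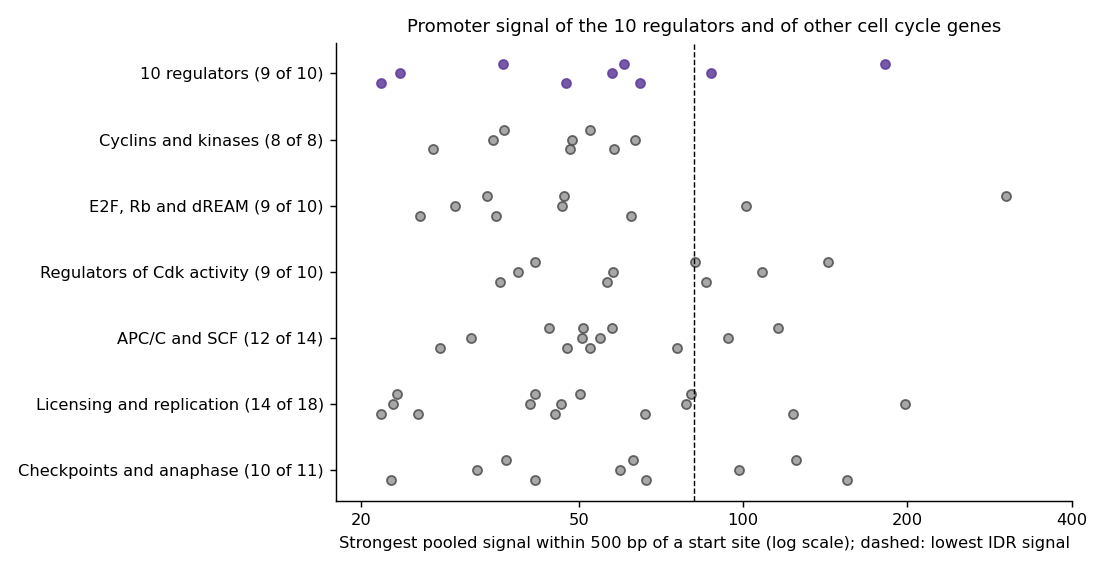
Strongest pooled signal within 500 bp of a start site, on a log x axis, for the 10 genes (top row) and the other cell cycle genes by group; each point is a gene, labels give how many genes had an entry of how many, and the dashed line is the lowest IDR signal (81.3). CycE (182) and stg (87.5) lie right of the line in the top row, Dp (303) is the farthest right of all, and no point of the further cyclins and kinases crosses the line.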

How the data were processed

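The files are narrowPeak lists in dm6 deposited by the authors, per the file records: relaxed peaks of each replicate and of both pooled, made as input to IDR, and the IDR-thresholded peaks drawn from them. The signal per peak and the −log10 q-value per peak are the authors' caller's values, as deposited; 88.1% of IDR peaks share the highest −log10 q, so it ranks nothing here. The sources used here do not name the aligner or the peak caller, nor the IDR threshold. Lists in dm3 and control libraries were not analysed here. The labels call the replicates biological, and say no more of how separate they are.

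Summits (1-based) were placed on the Ensembl release 115 annotation (BDGP6 version 54); all 10 genes have the same bounds in RefSeq, and no peak ended past a chromosome. A replicate's summit within 200 bp of a pooled summit counted as its match. The code for the window counts was checked on simulated data, where all 200 summits planted inside gene windows were counted. This checks the code only and says nothing of how well binding is detected. No test was made over genes, since genes are not replicates. The 10 genes, the lists and the phase groups were chosen with earlier results of these data known. Named are all 10 genes, the neighbours of their IDR summits and, of the other cell cycle genes, those with a promoter IDR summit and up to 2 per group without one; further neighbours were named after their values were seen, and the split at 20 kb was added then too. CDC45L was matched as Cdc45. Python 3.11.15, numpy 2.4.6, pandas 2.3.3, scipy 1.17.1 and matplotlib 3.10.9 were used.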

Additional observations from a re-analysis of the deposited data

How the results depend on the processing

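Of the 10 genes, 5 had an IDR summit in the window; 3 did when the window was the gene body alone, and 3 (CycE, E2f1 and CycB) among the IDR peaks above their median signal (the stronger part). Flanks of 1 kb or 10 kb, nearest start sites, and merging overlapping peaks (added after seeing the data) gave 4 or 5, and with the strongest peaks of 1 replicate in place of the IDR set the count was 5 to 5, with CycD in and stg out without replicate 1. Relaxed summits at a −log10 q of at least 2 were found for 5 genes. Shares over all genes are not given here for the altered windows, distances, peak sets or q cut. The counts of genes at those settings therefore only describe the listed genes. The promoter count of 2 was 1 in the stronger part and 1 within 250 bp, and ranged from 2 without replicate 1 to 3 without replicate 3, where the CycB promoter came in. The median percentile of the strongest summit, 89.4, was 72.9 over gene bodies alone (8 genes), and 84.6 to 91.6 in single replicates. G2/M density, 0.590 per 10 kb, was 0.719 with flanks of 1 kb, 0.424 with 10 kb, 0.295 by nearest start site, 0.147 in the stronger part, where the G1/S density was 0.249, 0.717 with rux moved to the G1/S genes (added after seeing the data), and 0.442 to 0.590 with a replicate left out. In that stronger part the order of the phases was turned round, on 2 overlapping peaks at CycE, 1 at E2f1 and 1 at CycB. The cause was not tested. The G1/S density, 0.331, was 0 without E2f1 and CycE (added after seeing the data), and 0.249 to 0.414 with a replicate left out. The 13 other cell cycle genes became 7 in the stronger part, 6 by nearest start site, and 11 to 13 with a replicate left out. Within 25 bp of summits the box was at 0 of 8 IDR summits (6.77% of all IDR summits) and 1 of 86 relaxed summits (5.05% of all relaxed summits), the E2F site at 0 of 86 (0.870% of all) and the DRE at 0 of 86 (0.520% of all); within 100 bp the DRE was at 3 of 86 (2.09% of all). No paired analysis was possible because there is 1 group. Depth is unknown, and 2 replicates give no test.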
